A study of Rattus norvegicus with 10 samples.

Results

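The subject is a set of 10 genes of the TREM2 and TYROBP pathway and of the disease-associated microglia state, measured in the left hippocampus of female rats given ibudilast. The set is Trem2, Tyrobp, Cd68, Cd9, Cd63, Csf1, Cst7, Lgals3, Lpl and Spp1, matched by symbol among the 17168 genes of the deposited count table, and all 10 were found there. The 5 ibudilast rats and the 5 untreated rats were all TgF344-AD females, a Fischer 344 line that carries mutant human amyloid precursor protein and presenilin 1 transgenes under the mouse prion promoter and is used as a model of Alzheimer disease. The treated rats ate chow with ibudilast, an inhibitor of several cyclic nucleotide phosphodiesterases, from 5 months of age for 6 months, and the untreated rats ate plain rodent chow. The hippocampi were taken at 11 months of age, every library has its own animal number in the title, and both groups carry the transgenes; non-transgenic rats were not analysed here.

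TREM2 is a receptor on the surface of microglia, the macrophages of the brain. It binds lipids and lipoproteins and signals through the adaptor TYROBP, also called DAP12, whose cytoplasmic motif recruits the kinase SYK. In mouse models of amyloid deposition, microglia around plaques lower their homeostatic genes and raise a disease-associated programme of lysosomal, lipid and secreted proteins, part of which depends on TREM2. Several of these genes are also used by other brain cells, so in tissue RNA a level sums over all cells, and fewer cells of a type cannot be told apart from less RNA per cell.

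Library totals of estimated counts spanned 7553804 to 10121571 for the ibudilast libraries and 6960066 to 8204390 for the untreated libraries. Levels are given as CPM, a library's counts scaled to a common total with TMM factors, and group values as mean ± SD with n = 5 libraries each. A total of 3 libraries stood apart by markers of neighbouring tissue. Ibudilast 3 and ibudilast 5 had summed levels of 10 meningeal fibroblast markers of 1161 and 1343 CPM, against at most 209 CPM in the other libraries, and ibudilast 3 also had the cerebellar transcript Fat2 at 1196 CPM. Untreated 1 had the choroid plexus transcript Ttr at 2491 CPM, against at most 63.6 CPM elsewhere. Neocortical markers were at 656 to 1115 summed CPM in the ibudilast libraries and at 556 to 688 CPM in the untreated libraries. Of 13 tested neocortical markers 6 passed as higher with ibudilast and none was at 0. Fits with a score of these markers, or of hippocampal neuron markers, as covariate are given beside the counts below, and most calls were lost in them.

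Receptor and adaptor were both lower with ibudilast. Trem2, the ligand-binding receptor, stood at 16.4, 9.68, 5.63, 10.6 and 8.72 CPM in ibudilast 1 to 5, against 21.7, 29.7, 20.4, 22.5 and 15.3 CPM in untreated 1 to 5. Only ibudilast 1 reached the untreated range, above untreated 5, and the other 4 ibudilast libraries lay below every untreated one. The means were 10.2 ± 3.94 CPM with ibudilast and 21.9 ± 5.19 CPM untreated, a log2 ratio (ibudilast over untreated) of -1.11 ± 0.26 (SE; adjusted p = 0.00718 by edgeR's quasi-likelihood test, as are all adjusted p-values below unless another tool is named). Tyrobp, the signalling adaptor, stood at 10.2, 9.30, 5.86, 8.45 and 9.29 CPM in ibudilast 1 to 5, against 26.1, 28.1, 17.4, 14.8 and 12.6 CPM in untreated 1 to 5. Its groups did not overlap. Its log2 ratio was -1.20 ± 0.24 (SE; adjusted p = 0.00387, edgeR), which left 43.5% of the untreated mean. The coefficient of variation of Trem2 was 38.6% with ibudilast and 23.7% untreated, and that of Tyrobp was 19.2% with ibudilast and 35.1% untreated. Counts behind these values were modest, between 50 and 243 per library for Trem2 and between 52 and 230 for Tyrobp.

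**Figure D1:**
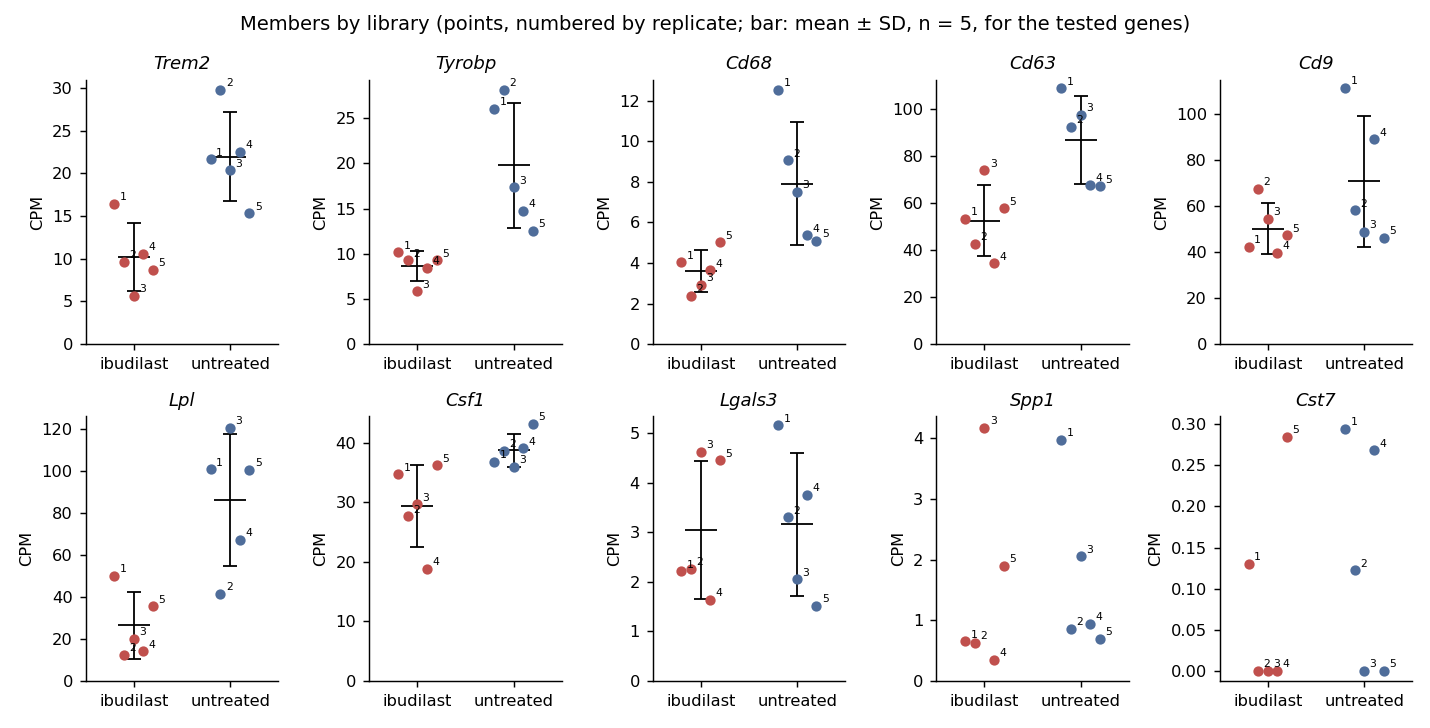
Levels of the 10 genes in CPM in each library, ibudilast on the left and untreated on the right of each panel. Points are libraries numbered by replicate, and bars give the mean ± SD (n = 5) for the 8 tested genes. For Tyrobp and Cd68 all ibudilast points lie below all untreated points, while those of Lgals3, Spp1 and Cst7 overlap.

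Of the 3 membrane proteins of lysosomes and vesicles, Cd68 and Cd63 fell and Cd9 did not pass, where 18.5% of all 11682 tested genes were called lower. Cd68, which encodes a glycosylated lysosomal protein of macrophages, stood at 4.04, 2.39, 2.93, 3.64 and 5.02 CPM in ibudilast 1 to 5, against 12.5, 9.06, 7.52, 5.37 and 5.10 CPM in untreated 1 to 5. The groups met without overlap, ibudilast 5 standing just under untreated 5, and the log2 ratio was -1.12 ± 0.29 (SE; adjusted p = 0.0112, edgeR). Cd63, a tetraspanin of late endosomes and exosomes that most cells make, averaged 52.4 ± 15.1 CPM with ibudilast and 86.6 ± 18.5 CPM untreated (SD, n = 5 each). In single libraries it stood at 53.3, 42.6, 73.9, 34.4 and 57.6 CPM in ibudilast 1 to 5, against 109, 92.4, 97.5, 67.6 and 67.0 CPM in untreated 1 to 5. Ibudilast 3 was inside the untreated range and the other 4 were below it. The log2 ratio of Cd63 was -0.73 ± 0.21 (SE; adjusted p = 0.0185, edgeR).

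Promoters were available for 6 of the 10 genes in RefSeq on GRCr8, as windows from 250 bases before to 50 bases after the start, a build other than the rn6 of the counts. Those of Trem2 and Cd68, which both fell with ibudilast, are shown 5′ to 3′ with the PU box in capitals, GAGGAA on either strand, the core letters bound by the myeloid factor PU.1. Its gene, Spi1, had a log2 ratio of -0.92 ± 0.22 (SE; adjusted p = 0.00729, edgeR).
Trem2, chr9:20151730-20152029, minus strand: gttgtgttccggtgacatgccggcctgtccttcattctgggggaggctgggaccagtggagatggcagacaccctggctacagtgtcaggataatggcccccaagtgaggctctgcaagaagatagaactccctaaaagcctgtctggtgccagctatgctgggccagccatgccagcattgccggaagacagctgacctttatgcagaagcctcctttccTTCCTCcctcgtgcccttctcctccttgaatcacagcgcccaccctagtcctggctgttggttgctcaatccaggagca
Cd68, chr10:54882392-54882691, minus strand: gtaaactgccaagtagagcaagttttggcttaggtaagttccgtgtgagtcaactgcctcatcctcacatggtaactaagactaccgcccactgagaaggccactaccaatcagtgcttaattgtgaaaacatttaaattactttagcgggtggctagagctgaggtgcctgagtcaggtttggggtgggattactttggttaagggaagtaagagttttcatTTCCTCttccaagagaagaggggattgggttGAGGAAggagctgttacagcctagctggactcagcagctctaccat
The window of Trem2 holds 1 match, at bases 222 to 227, and that of Cd68 holds 2, at bases 224 to 229 and 255 to 260. Cd9 and Cd63 had 1 match each and Cst7 and Spp1 had none, so 4 of 6 windows matched, against 27.6% of 33469 rat promoter windows of that length. The PU box letters were chosen after a longer form had given no match in these same promoters, so the 2 shares are no test of enrichment. The longer ETS letters AGGAAGT, which share AGGAA with the PU box, were found on either strand in 1 of the 6, Cst7, and in 8.41% of all windows. The E-box TCACGTG of the lysosomal factors of the MITF and TFE family was in 0 of the 6 and in 3.2% of all. A match describes letters and shows no binding, and a part of PU.1 in the falls of these genes was not tested.

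Cd9, a tetraspanin that microglia raise in the disease-associated state and that myelinating cells also carry, stood at 42.2, 67.4, 54.4, 39.8 and 47.3 CPM in ibudilast 1 to 5, against 111, 58.1, 48.7, 89.0 and 46.2 CPM in untreated 1 to 5. The groups overlapped widely and the log2 ratio was -0.49 ± 0.25 (SE; adjusted p = 0.139, edgeR). Its 3 highest libraries, untreated 1, untreated 4 and ibudilast 2, were also the 3 with the most oligodendrocyte marker RNA. The summed level of 12 oligodendrocyte markers was 18968 CPM in untreated 1, 13413 CPM in untreated 4 and 12217 CPM in ibudilast 2, while the other ibudilast libraries held 5884 to 7225 CPM and the other untreated ones 6329 to 6947 CPM. Of those markers 12 were tested and 0 passed in edgeR (1 at an unadjusted p under 0.05), against 1 in DESeq2 and 0 in limma-voom, and none of the markers was at 0. Whether myelinating cells account for the spread of Cd9 was not tested.

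Lpl had the lowest ratio of the 8 tested genes. It encodes lipoprotein lipase, which releases fatty acids from lipoproteins, is one of the genes raised in mouse disease-associated microglia, and is also made by hippocampal neurons. Ibudilast 1 to 5 stood at 50.03, 12.6, 20.05, 14.1 and 35.6 CPM, against 101, 41.5, 121, 67.2 and 101 CPM in untreated 1 to 5. Ibudilast 1 was above untreated 2, the lowest untreated library, and the other 4 ibudilast libraries were below it. The ibudilast mean was 26.5 ± 16.0 CPM and the untreated mean 86.3 ± 31.6 CPM (SD, n = 5 each), and the log2 ratio was -1.70 ± 0.40 (SE; adjusted p = 0.00785, edgeR). Among treated libraries Lpl was lowest in ibudilast 2 and ibudilast 4, in which 19 hippocampal neuron markers summed to 750 and 666 CPM, the lowest sums of all libraries. By the score of those markers used as covariate below, ibudilast 4 (-0.72) and ibudilast 3 (-0.37) were lowest and ibudilast 2 stood at -0.27. Over the groups the sum ran from 666 to 1436 CPM with ibudilast and from 1258 to 2137 CPM untreated. Of the 15 tested markers 7 fell and 1 rose. Among untreated libraries the order was mixed. Untreated 2 was lowest in both Lpl and the sum, but untreated 4, with the highest sum, had less Lpl than untreated 1, where the sum was 1322 CPM. With a score of the hippocampal neuron markers as covariate the log2 ratio of Lpl was -1.04 ± 0.46 (SE; adjusted p = 0.171, edgeR), so the call was lost and the ratio was nearer to 0. That score itself ran from -0.72 to 0.20 with ibudilast and from 0.06 to 0.60 untreated, and over all genes 693 passed in that fit, against 4497 without it. Whether hippocampal neurons account for the fall of Lpl was not tested, and in this fit score and treatment cannot be fully told apart.

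Csf1 and Lgals3 did not pass, and Spp1 had too few counts to be tested. Csf1, the gene of a growth factor that binds the microglial receptor CSF1R, stood at 34.7, 27.6, 29.6, 18.8 and 36.2 CPM in ibudilast 1 to 5, against 36.8, 38.7, 36.0, 39.1 and 43.2 CPM in untreated 1 to 5. A total of 4 ibudilast libraries were below all untreated ones and ibudilast 5 was not, and the log2 ratio was -0.40 ± 0.16 (SE; adjusted p = 0.0642, edgeR). It passed in 4 of 25 other fits, among them DESeq2 (adjusted p = 0.0483), and its log2 ratio was -0.06 in the fit with a hippocampal neuron marker score and -0.30 in that with a neocortical one. Csf1 was the steadiest of the 10 genes in untreated rats, with a coefficient of variation of 7.21%.

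Lgals3, which encodes the glycan-binding protein galectin-3, stood at 2.21, 2.26, 4.62, 1.64 and 4.46 CPM in ibudilast 1 to 5, against 5.16, 3.30, 2.05, 3.76 and 1.52 CPM in untreated 1 to 5, so the groups lay on top of each other. Its log2 ratio was -0.04 ± 0.38 (SE; adjusted p = 0.944, edgeR), and the sign changed in 9 of 25 other fits. Spp1, which encodes the secreted phosphoprotein osteopontin, had 5, 5, 37, 3 and 20 counts in ibudilast 1 to 5, against 27, 7, 15, 7 and 5 counts in untreated 1 to 5, too few for the count filter. Without that filter its log2 ratio was -0.12 ± 0.68 (SE; adjusted p = 0.914, edgeR). The highest treated libraries for both genes were ibudilast 3 and ibudilast 5, the 2 with meningeal markers, and the highest untreated one was untreated 1.

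In ibudilast 3 and ibudilast 5 the 12 border macrophage and monocyte markers summed to 51.4 and 46.6 CPM, against 14.3 to 17.98 CPM in the other ibudilast libraries and 20.1 to 25.3 CPM in untreated ones. Mrc1, the mannose receptor gene of border macrophages, was at 12.3 and 13.5 CPM in those libraries, against at most 2.46 CPM in the rest. Its log2 ratio was 1.57 (edgeR adjusted p = 0.13) with all libraries and -0.89 without ibudilast 3, ibudilast 5 and untreated 1. Siglec1, the sialoadhesin gene of macrophages, averaged 7.33 ± 0.90 CPM with ibudilast and 6.38 ± 1.04 CPM untreated (SD, n = 5 each; edgeR adjusted p = 0.337). Of 5 tested markers in this list 0 passed in edgeR, with 0 at an unadjusted p under 0.05, and 0 passed in DESeq2 and limma-voom. None was at 0 in all libraries. Without the 3 libraries the log2 ratio of Lgals3 was -0.39 ± 0.36 (SE; adjusted p = 0.434, edgeR).

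**Figure D2:**
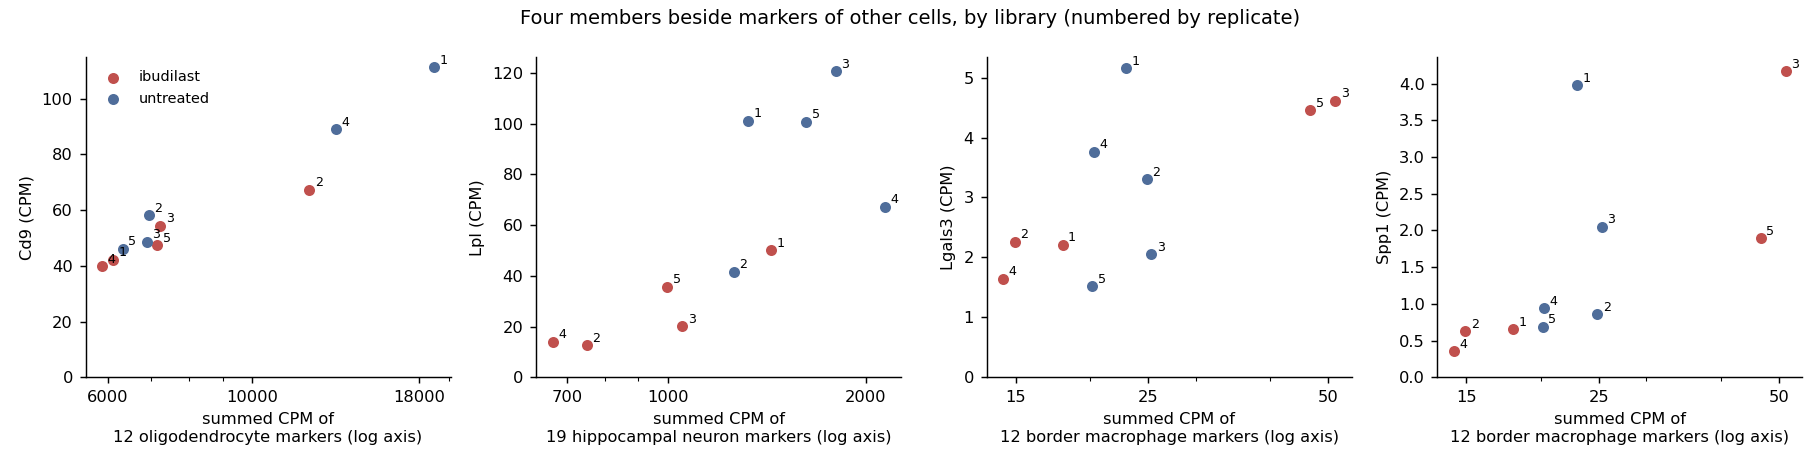
Cd9, Lpl, Lgals3 and Spp1 in CPM (vertical axes) against the summed CPM of markers of other cells in the same library (horizontal log axes), with libraries numbered by replicate. Cd9 is highest in the 3 libraries with 12217 to 18968 CPM of oligodendrocyte markers. Among ibudilast libraries Lgals3 and Spp1 are highest in ibudilast 3 and 5, where border macrophage markers reach 51.4 and 46.6 CPM. Untreated 1, with 23.0 CPM of those markers, has 5.16 CPM of Lgals3 and 3.98 CPM of Spp1.

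Cst7, the gene of the cysteine protease inhibitor cystatin F, was at the limit of detection. It had 1, 0, 0, 0 and 3 counts in ibudilast 1 to 5 and 2, 1, 0, 2 and 0 counts in untreated 1 to 5, 4 and 5 counts in all, and a change could not be seen at this depth. In a library with a count of 0, up to 3 counts remain possible, by counting error alone.

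Of the 10 genes 8 passed the count filter, and 5 of those, Trem2, Tyrobp, Cd68, Cd63 and Lpl, fell while 3 did not pass. Over all genes edgeR called 18.5% lower and 20.0% higher with ibudilast, 38.5% in either direction, so calls were common in this comparison. The median log2 ratio of the 8 genes was -0.92, against 0.01 over all 11682 tested genes. All ibudilast libraries were below all untreated ones for 2 of the 8, Tyrobp and Cd68, as they were for 11.7% of all tested genes. The same 5 genes passed without ibudilast 3, ibudilast 5 and untreated 1, with log2 ratios of -0.85 for Trem2, -0.98 for Tyrobp, -1.02 for Cd68, -0.90 for Cd63 and -1.69 for Lpl. When a neocortical marker score was added as covariate 1 of the 8, Tyrobp, passed, with a log2 ratio of -1.50. Cd63 then had -0.29 ± 0.26 (SE; adjusted p = 0.454, edgeR) and Lpl -1.38 ± 0.70 (SE; adjusted p = 0.181, edgeR). Trem2 had -1.32 ± 0.44 (SE; adjusted p = 0.0643, edgeR) and Cd68 -1.28 ± 0.49 (SE; adjusted p = 0.0934, edgeR). None of these 4 passed. For Trem2 and Cd68 the ratios were lower than without the score, and the SE was larger than the 0.26 and 0.29 without it. Over all 11682 tested genes 1749 passed in that fit, 558 of them lower, against 4497 without the score. The score itself ran from -0.36 to 0.76 with ibudilast and from -0.495 to -0.22 untreated. Why the calls were lost was not tested. When a hippocampal neuron marker score was added 0 passed in edgeR, with 5 at an unadjusted p under 0.05. Over all tested genes 693 passed in that fit, 293 of them lower. The log2 ratios in that fit were -0.90 ± 0.34 for Trem2, -1.27 ± 0.34 for Tyrobp, -1.21 ± 0.41 for Cd68, -0.70 ± 0.31 for Cd63 and -1.04 ± 0.46 for Lpl (SE). DESeq2 and limma-voom, without such scores, called 6 and 5 of the 8.

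**Figure D3:**
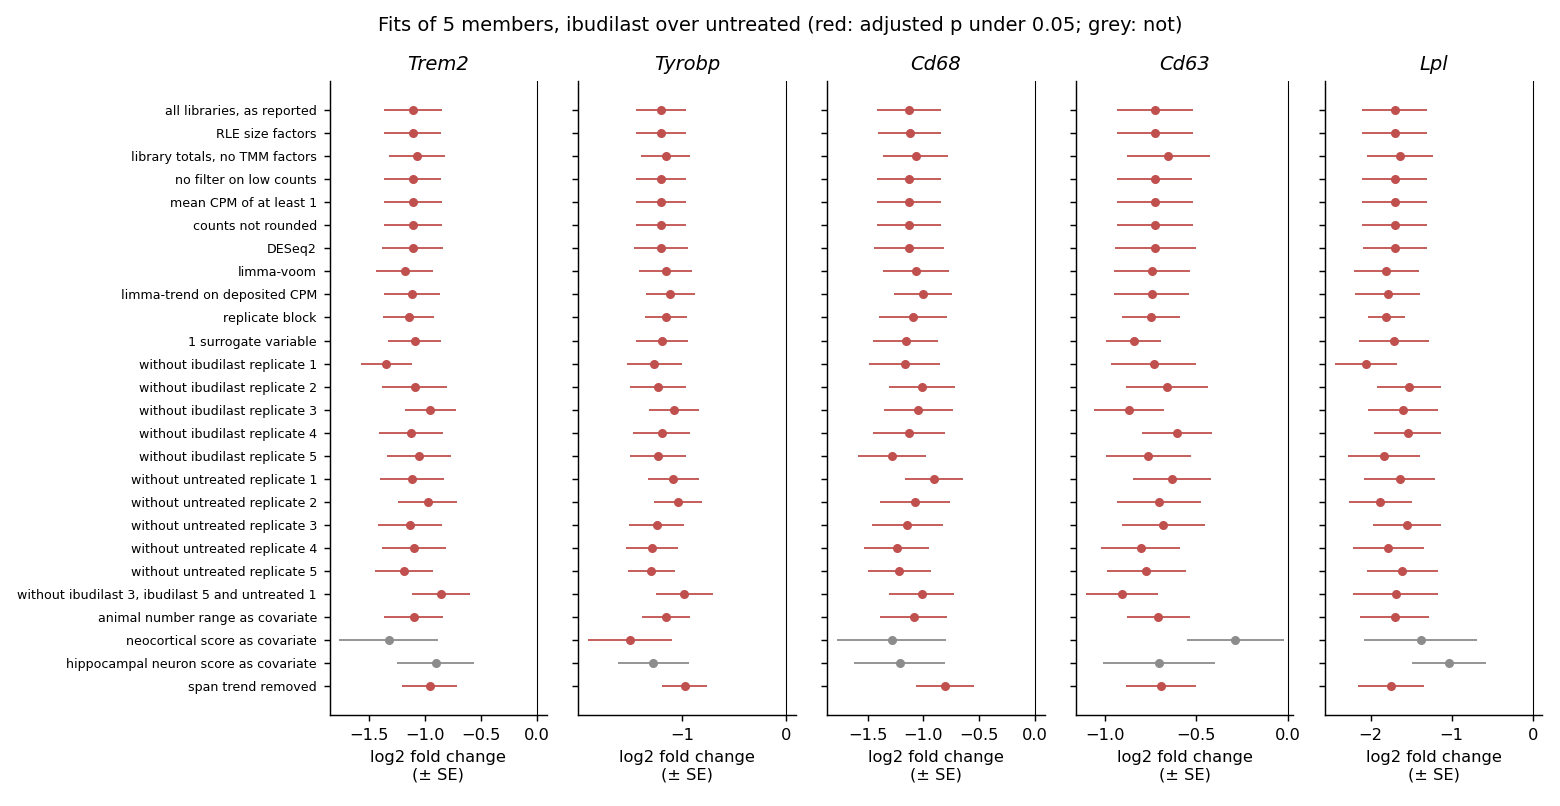
Log2 ratio ± SE of the 5 genes that fell, ibudilast over untreated, in the fit with all libraries and in 25 others; red marks an adjusted p under 0.05 and grey one above it. All points lie below 0, and the grey ones are in the 2 fits with a marker score as covariate.

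Most genes in a list of microglial markers, called homeostatic here, fell too, as did some markers of vessels. The list is not limited to genes of the resting state, as it also holds Aif1, Itgam, Itgb2 and Spi1. Of 22 homeostatic microglia markers tested 18 fell, with a median log2 ratio of -0.95, where 18.5% of all tested genes fell. A total of 12 fell without ibudilast 3, ibudilast 5 and untreated 1, against 1357 of all 11720 genes tested in that fit. With the neocortical score as covariate 10 of the 22 fell, against 558 of all 11682 tested genes. With the hippocampal neuron score 4 fell, against 293 of all tested genes. Of 12 endothelial and mural markers tested 5 fell and 0 rose, and 7 fell without those 3 libraries. Slco1c1, a transporter gene of brain endothelium, had a log2 ratio of -1.01, and the junction genes Pecam1 and Cldn5 had -0.73 and -0.65. The 7 vascular markers that did not pass ran from -0.28 for Abcc9 to 0.11 for Pdgfrb, with a further junction gene, Cdh5, at 0.08. The vascular markers summed to 383 to 636 CPM with ibudilast and 542 to 773 CPM untreated, and none was at 0. Aif1, which encodes the microglial protein IBA1, averaged 13.1 ± 2.63 CPM with ibudilast and 36.4 ± 11.1 CPM untreated, and C1qb, a chain of complement C1q, averaged 42.9 ± 9.13 CPM with ibudilast and 112 ± 29.1 CPM untreated (SD, n = 5 each). The integrin genes Itgam and Itgb2, which together encode complement receptor 3, had log2 ratios of -1.15 and -1.06. The 4 markers that did not pass were Cx3cr1, Sall1, Irf8 and Olfml3, singled out after their values were seen. Cx3cr1, the fractalkine receptor gene of microglia, averaged 29.2 ± 7.84 CPM with ibudilast and 32.2 ± 5.70 CPM untreated (SD, n = 5 each), a log2 ratio of -0.14 ± 0.20 (SE; adjusted p = 0.6, edgeR). Irf8, a transcription factor gene of microglia, passed without ibudilast 1 (log2 ratio -0.73).

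**Figure D4:**
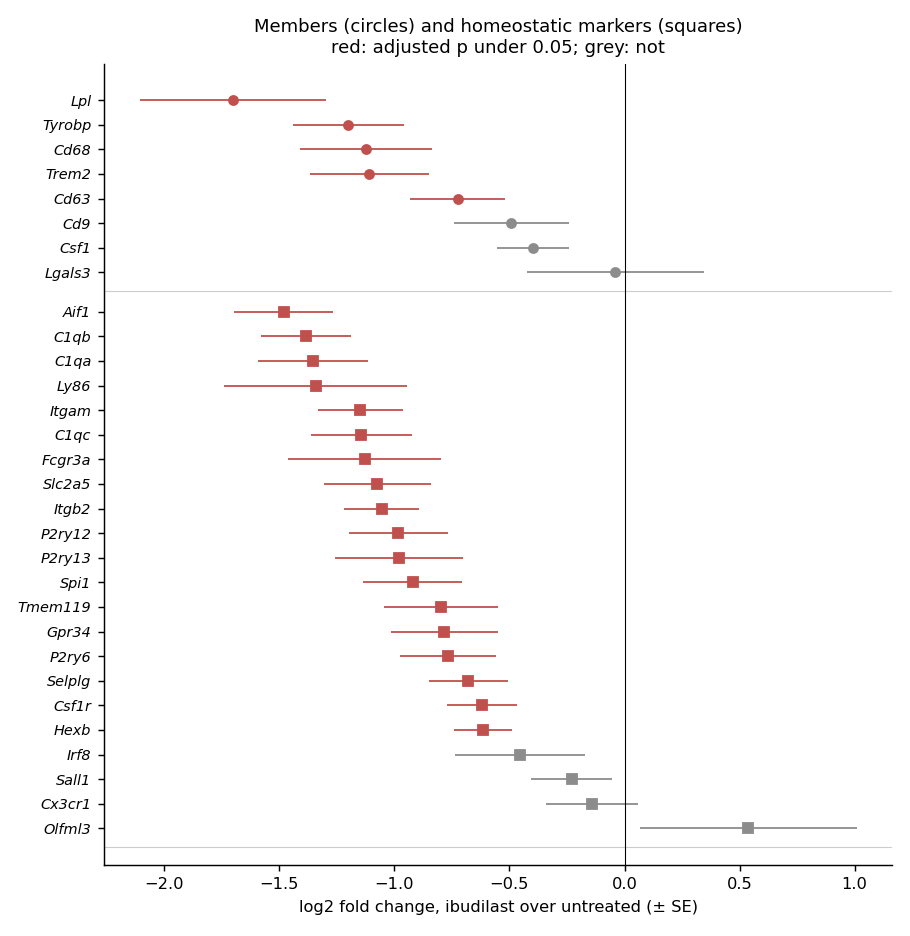
Log2 ratio ± SE, ibudilast over untreated, of the 8 tested genes (circles) and of 22 homeostatic microglia markers (squares); red marks an adjusted p under 0.05. Trem2, Tyrobp and Cd68 lie at -1.11, -1.20 and -1.12, inside the spread of the homeostatic markers, whose median is -0.95.

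Set against the homeostatic markers of the same library, most of these falls shrank. On the log2(CPM + 0.5) scale Trem2 lay 0.57 below the mean of the 22 markers with ibudilast and 0.28 below it untreated (SD 0.29 and 0.18), a difference of -0.29. For Tyrobp the difference was -0.28 and for Cd68 it was -0.17. Cd63 differed by 0.09, Cd9 by 0.40, Csf1 by 0.40 and Lgals3 by 0.79, all toward higher with ibudilast. Lpl kept the largest shortfall of the tested genes, a mean of 0.64 above the markers with ibudilast and 1.61 above them untreated, a difference of -0.96. The groups overlapped for all 8 tested genes, so on this relative scale no gene separated treated from untreated rats. These are descriptions with no test, and the marker mean itself was 3.52 to 4.32 with ibudilast and 4.43 to 5.04 untreated, without overlap. A gene whose level did not change therefore lands higher with ibudilast on this scale, as Lgals3 did with its log2 ratio of -0.04. The shrinking of the falls follows from the lower marker mean, and a positive difference here is no rise in level.

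**Figure D5:**
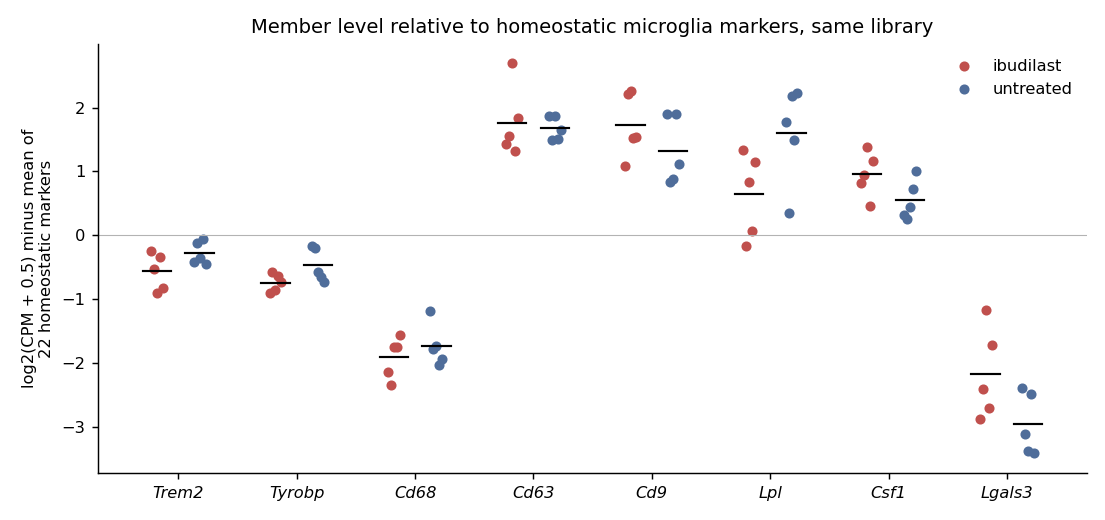
Level of each tested gene minus the mean of 22 homeostatic microglia markers in the same library, both as log2(CPM + 0.5). Points are libraries, ibudilast left of untreated for each gene, and bars are group means. The groups overlap for every gene shown.

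Other genes of the disease-associated programme fell more often than they rose. In the list written for it, which leaves out the 10 genes above, 6 of 17 tested genes fell and 2 rose, with a median log2 ratio of -0.26. Of all tested genes 18.5% fell and 20.0% rose, so the share that rose was below that of all genes. With the neocortical score as covariate 2 of the 17 fell and 0 rose in edgeR, with 9 at an unadjusted p under 0.05. Over all 11682 tested genes 558 fell and 1191 rose in that fit. With the hippocampal neuron score 0 passed, with 6 at an unadjusted p under 0.05, where 293 of all genes fell and 400 rose. Apoe, which encodes the lipoprotein that TREM2 binds and which astrocytes also make, averaged 2957 ± 674 CPM with ibudilast and 6432 ± 1245 CPM untreated (SD, n = 5 each). Of 11 tested astrocyte markers 5 fell, none was at 0, and they summed to 4232 to 5857 CPM with ibudilast and 6213 to 9537 CPM untreated; their part in the Apoe result was not tested. Fth1, the ferritin heavy chain gene, averaged 1364 ± 170 CPM with ibudilast and 2645 ± 782 CPM untreated. Npc2, a lysosomal cholesterol carrier gene, and B2m, the MHC class I light chain gene, had log2 ratios of -0.78 and -0.82. Neither of these nor Fth1 passed in the fits with a marker score. The 2 that rose were Hif1a, a hypoxia response factor gene (log2 ratio 0.45), and the growth factor gene Igf1 (0.74). Neither passed without ibudilast 3, ibudilast 5 and untreated 1, where they had log2 ratios of 0.27 and 0.58. Hif1a also did not pass without untreated 1, untreated 2 or untreated 3, nor Igf1 without any of ibudilast 2, ibudilast 3, ibudilast 4 or the same 3 untreated libraries. With the replicate number as a block neither passed (adjusted p = 0.0612 for Hif1a and 0.0861 for Igf1, edgeR), and neither did with a marker score or with the span trend taken out. Igf1 also did not pass without the filter on low counts (adjusted p = 0.0522, edgeR).

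Downstream and shedding genes of the receptor complex were mixed. In that list 4 of 17 tested genes fell and 1 rose, a share lower close to the 18.5% of all genes, and the median log2 ratio was -0.23. With the neocortical score as covariate 1 of the 17 fell and 1 rose, where 558 of all 11682 tested genes fell and 1191 rose. With the hippocampal neuron score 0 passed in edgeR, with 3 at an unadjusted p under 0.05, where 293 of all genes fell and 400 rose. Ptpn6, which encodes the phosphatase SHP-1 that dampens such receptors, averaged 7.28 ± 1.99 CPM with ibudilast and 16.0 ± 5.10 CPM untreated (SD, n = 5 each). Siglec5, a sialic acid receptor gene, and the adaptor gene Lat2 had log2 ratios of -1.09 and -1.37, and Vav3, a guanine nucleotide exchange factor gene, -1.23. Adam10, whose product sheds TREM2 from the cell surface, averaged 99.7 ± 9.69 CPM with ibudilast and 75.6 ± 8.84 CPM untreated, a log2 ratio of 0.40 ± 0.10 (SE; adjusted p = 0.0108, edgeR). Adam10 had a log2 ratio of 0.11 with the trend over gene span taken out and did not pass. Neither Adam10 nor Lat2 passed without ibudilast 3, ibudilast 5 and untreated 1 (log2 ratios 0.36 and -1.01), and Vav3 did not pass with the replicate number as a block (-1.29). Syk, the kinase that TYROBP recruits, averaged 8.39 ± 1.26 CPM with ibudilast and 10.6 ± 2.76 CPM untreated (SD, n = 5 each; edgeR adjusted p = 0.186). Plcg2, a lipase gene further down the pathway, averaged 5.28 ± 1.23 CPM with ibudilast and 6.70 ± 1.71 CPM untreated (adjusted p = 0.244). Both were picked for their place in the pathway and neither passed.

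Among receptors, ligands and partners of the 10 genes, 14 of 24 tested fell and 2 rose, where 18.5% of all tested genes fell and 20.0% rose. With the neocortical score as covariate 3 fell and 2 rose, where 558 of all 11682 tested genes fell and 1191 rose. With the hippocampal neuron score 3 fell and 0 rose, where 293 of all genes fell and 400 rose. Csf1r, the receptor for CSF1, averaged 92.2 ± 20.5 CPM with ibudilast and 142 ± 19.8 CPM untreated, while Il34, its other ligand, averaged 47.5 ± 11.9 CPM with ibudilast and 53.5 ± 11.9 CPM untreated (SD, n = 5 each; edgeR adjusted p = 0.505). Apoc1, an apolipoprotein gene, had 9.49 ± 6.41 CPM with ibudilast and 46.7 ± 18.1 CPM untreated, a log2 ratio of -2.30 ± 0.39 (SE; adjusted p = 0.0018, edgeR). The tetraspanin genes Cd81 and Cd82, relatives of Cd9 and Cd63, had log2 ratios of -0.48 and -0.89, and the lysosomal membrane gene Lamp2 -0.47. The 2 that rose were Sel1l, needed for lipoprotein lipase to leave the endoplasmic reticulum, at 139 ± 8.95 CPM with ibudilast and 87.0 ± 23.1 CPM untreated, and the cathepsin gene Ctsf, with a log2 ratio of 0.42. Cd44, a receptor for osteopontin, averaged 9.61 ± 5.98 CPM with ibudilast and 10.2 ± 2.15 CPM untreated (edgeR adjusted p = 0.903).

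The genes whose profile over the 10 libraries was closest to Trem2 included further microglial receptors. Likeness was the root mean square difference of log2(CPM + 0.5), each gene centred on its own mean, over 11681 genes. P2ry12, the purinergic receptor of resting microglia, came first at 0.15, followed by LOC498276, annotated in the deposited table as Fc gamma receptor II beta, at 0.15, Sh3bgrl3 and Dctd at 0.16 and 0.17, and the leukocyte tetraspanin gene Cd37 at 0.18. Tyrobp ranked 73 at 0.28. For Tyrobp the closest were Epsti1 at 0.11, the MHC class II chaperone gene RT1-DMb and the annexin gene Anxa3 at 0.13 each, Fcer1g, an adaptor that like TYROBP carries an activation motif, at 0.16, and S100a1 at 0.17. Cd68 ranked 74 and Trem2 79 for Tyrobp, whereas Lpl ranked 8138 and Lgals3 6847. The measure takes in the difference between the groups, so genes close to Trem2 or Tyrobp are lower with ibudilast by construction.

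Untreated rats also differed among themselves. Over the 8 tested genes untreated 1 was the highest library for 4, namely Cd68, Cd9, Cd63 and Lgals3, and untreated 2 for Trem2 and Tyrobp. Untreated 5 was the highest for Csf1 and the lowest for Lgals3. Among treated rats ibudilast 1 had the most Trem2, Tyrobp and Lpl, and the homeostatic marker mean was also highest there, 4.32, against 4.43 in untreated 5, the lowest untreated library. Ibudilast 4 was the lowest of all libraries for Cd9, Cd63 and Csf1.

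Gene length in the genome moved with the comparison as well. Shorter genes tended to be lower with ibudilast, and the median log2 ratio was -0.31 in the first of 10 equal bins of tested genes by span, the shortest, which holds Tyrobp and Cd68, and -0.19 in the next, which holds Trem2. With that trend taken out the log2 ratios were -0.97 for Tyrobp, -0.81 for Cd68, -0.96 for Trem2, -0.69 for Cd63 and -1.75 for Lpl, and all 5 passed.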

How the data were processed

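RNA of the left hippocampus was sequenced from strand-specific mRNA libraries, per the labels' protocols. The deposited expected counts are estimated counts per gene made by the authors, for which the submitters' processing notes list RSEM 1.2.15, Bowtie2 2.1.0, bcl2fastq 2.17 and rn6. Annotation and strand setting: not given in the sources used here, and genes that overlap on opposite strands carry that doubt. A second deposited table gives signal values, CPM that the authors scaled with TMM (the notes list edgeR), and values recomputed here matched 99.9% of it within 0.1%. Counts were rounded (10.6% to 11.3% per library were not whole) and tested over all genes with edgeR 4.0.16 in R 4.3.3 (filterByExpr, TMM factors, quasi-likelihood test, p-values adjusted by Benjamini-Hochberg, called under 0.05), with groups from the titles. The fit was tested on simulated counts. CPM here use the effective library sizes of that fit and differ slightly from the deposited ones. Standard errors follow from the test statistic.

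The 10 genes, the lists and the tests were chosen with earlier results of these data known. The rule for names took, per list, up to 4 called genes of smallest p, or 2 where none passed; it was applied to the 5 lists of microglial, pathway and border macrophage genes, while lists of other cells are given by counts and sums. It also took the 5 genes most like Trem2 and Tyrobp. Csf1r, Il34, Cd44, Syk, Plcg2, Spi1, Vav3, Hif1a, Igf1, Sel1l, Ctsf, Cx3cr1, Sall1, Irf8, Olfml3, Slco1c1, Pecam1, Cldn5, Abcc9, Pdgfrb and Cdh5 were named after their values were seen, and the PU box letters were chosen after a longer form of them had given no match in these promoters. Marker scores are mean z-scores of log2(CPM + 0.5). Other fits used DESeq2 1.42.0, limma 3.58.1 and sva 3.50.0. Gene spans came from RefSeq on GRCr8 for 98.1% of tested genes, an approximation for rn6 counts. Intervals and floors cover counting error only.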

Additional observations from a re-analysis of the deposited data

How the results depend on the processing

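Trem2, Tyrobp, Cd68, Cd63 and Lpl kept a negative log2 ratio in each of 25 other fits, and the fits in which any of them did not pass were those with a marker score as covariate, where Tyrobp passed with the neocortical score. Over all genes 1749 passed with the neocortical score and 693 with the hippocampal neuron score, against 4497 without, and of the 8 tested members 1 and 0 passed, against 5. The cause was not tested. With 1 library left out, 3458 to 4751 genes and 5 to 6 members passed, Csf1 being the sixth without ibudilast 1 or ibudilast 5. DESeq2 called 4974 genes and limma-voom 4384. The replicate numbers are shared by the titles of both groups but no label says that they pair animals, and same-numbered libraries did not deviate together (correlations of -0.13 to 0.02). With the replicate number as a block 3535 genes passed, and the 5 members again. Adding the range of the animal number as a covariate, a fit chosen after seeing the data, gave 4462 genes and the 5 members.

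The log2 ratio of Lgals3 changed sign with library totals alone (0.030), the span trend removed (0.030), the neocortical score (0.41) and the hippocampal score (0.10), and ran from -0.22 to 0.20 with 1 library left out. Without ibudilast 3, ibudilast 5 and untreated 1, the sign of Mrc1 (-0.89), Olfml3 (-0.68) and Cx3cr1 (0.014) changed. Olfml3 was -0.021 with 1 surrogate variable, and Cx3cr1 ran from -0.25 to 0.016 with 1 library left out, the highest without ibudilast 3. Counts limit the precision of Cd68, Lgals3, Spp1 and Cst7, each at 85 or fewer per library, and of Trem2 and Tyrobp, which went down to 50 and 52.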
